A study of Corbicula fluminea with 24 samples.

Results

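Urban runoff clams were compared with reference clams in the digestive gland of Corbicula fluminea, the Asian clam, a freshwater bivalve that filters its food from the water. The clams spent a winter, December to March, in cages at a reference site, below a wastewater treatment plant (WWTP) and below an urban runoff effluent, with 8 clams per site and 1 RNA-seq library per clam. The 8 runoff and 8 reference libraries described here are 16 of the 24 in the series, chosen by the site given in the labels and not by any measured value. The labels give no strain, age, sex or chemical measurement for either group. Each site was 1 place and 1 deployment, so runoff cannot be told apart from any other difference between the places or cages, and p-values measure only the spread between clams.

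In bivalves the digestive gland takes up and breaks down food inside its cells, stores lipid and handles metals and foreign compounds. Fatty acids taken from food or stores must be joined to coenzyme A before they can be burned or built into membranes, and hormone-like signals reach the cell through membrane receptors that switch G proteins on and off. Stimulatory G proteins raise cyclic AMP, inhibitory ones lower it, and those of the q class act through phospholipase C.

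The table held 58291 assembled contigs, of which 57593 passed the filter on low counts. It names 1588 of them by a gene symbol (1574 tested), 19404 by a locus number or tag (19246 tested) and 37299 by a contig number only (36773 tested). No description, source species or sequence comes with the names, so a symbol is described here by what the gene of that name does in other animals. Names that end in numbers such as 2.2 are shared by several contigs, whose reads may have been divided among them, which makes their single values uncertain. Levels are counts relative to the scaled library size (CPM) and are compared only for the same contig between clams. In bulk tissue, fewer cells of a type and less RNA per cell cannot be told apart.

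Total counts ranged from 46.1 M to 97.7 M over the 16 libraries, with 62.9 M ± 17.5 (SD, n = 8) in runoff and 71.0 M ± 8.06 in reference clams (two-sided exact permutation p = 0.251). Sequencing lanes 3 and 4 each held 4 libraries of each site. Within lane 4 the runoff libraries were shallower by 25.2 M (exact permutation p = 0.0286, the smallest that 4 against 4 can give). Within lane 3 the number of contigs with a count differed by -109.5, runoff minus reference, at the same exact permutation p. Over the 16 libraries the lowest adjusted permutation p of the 5 library measures was 0.399, for contigs with a count. Runoff individuals 53, 56 and 62, reference individuals 20 and 21 and WWTP individual 41 stood apart from the other 18 libraries, taken as a value above 100 on the first principal component, which held 58.8% of the variance. The nearest libraries under that value were reference individual 30 at 92.0 and WWTP individual 33 at 56.2. Position on that component did not separate the 2 sites (exact permutation p = 0.954). Digestive enzymes were looked at beside the tissue label. The 27 digestive and lysosomal hydrolases tested summed to between 512.8 and 3666 CPM in runoff clams and between 535.8 and 3716 CPM in reference clams, and 1 of them, the endoglucanase GUN, ranged from 2.74 to 686 CPM and from 8.01 to 821 CPM. The 6 libraries that stood apart held the lowest GUN levels of all 24, from 2.74 to 33.8 CPM, against at least 77.3 CPM in the others. Hydrolase transcripts were present in every library, at wide and overlapping levels. The list also holds lysosomal enzymes and lysozymes, so their presence cannot by itself show which tissue was taken.

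Few contigs separated the 2 sites, and among contigs with a symbol only ACSL1 and GNAS passed, both lower in runoff clams. In edgeR's quasi-likelihood test with Benjamini-Hochberg adjustment, 67 contigs (0.116% of those tested) had an adjusted p under 0.05, 27 higher (0.0469%) and 40 lower (0.0695%) in runoff clams. With upper-quartile scaling the split was 13 higher and 12 lower of 25. No symbol was called higher in edgeR, where 29 symbols had an unadjusted p under 0.05 in that direction and 122 in the other, beside 9.95% of all contigs at that level. DESeq2 called 28 symbols, 5 higher and 23 lower, where it called 1.41% of all contigs (0.576% higher, 0.837% lower). For limma-voom the symbols were 3 higher and 10 lower, where it called 0.679% of all contigs (0.286% higher, 0.392% lower). An edgeR fit with the first principal component as a term called 4 symbols higher and 26 lower, where it called 1.66% of all contigs (0.679% higher, 0.981% lower). Without runoff individual 50 edgeR called no contig at all (5026 at an unadjusted p under 0.05), and without runoff individual 49 it called 198. The values of 8 and 8 clams did not overlap for 102 contigs (0.177% of those tested, 0.0851% higher and 0.092% lower), none of which carried a symbol.

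ACSL1, a long-chain acyl-CoA synthetase that activates fatty acids for oxidation or storage, fell at the runoff site. It ranged from 1.66 CPM in runoff individual 50 through a median of 2.11 to 3.19 in runoff individual 62, and from 2.95 CPM in reference individual 25 through a median of 3.46 to 4.10 in reference individual 30. All 8 runoff clams lay under the reference median, and individual 62 alone reached into the reference range. The means were 2.17 ± 0.465 and 3.47 ± 0.446 CPM (SD, n = 8), a log2 fold change of -0.68 (SE 0.122, adjusted p = 0.0362 in edgeR). The log2 fold change was -0.85 within lane 3 and -0.50 within lane 4, and -0.78 without the 6 libraries that stand apart, where the edgeR adjusted p was 0.178. The call held with 16 of the 24 libraries left out in turn, and the edgeR adjusted p reached 0.0908 without reference individual 31. Those 24 include the 8 WWTP libraries, which lie outside this contrast. No symbol was called by edgeR without runoff individual 50, 53, 56 or 63, or without reference individual 20, 29, 30 or 31. With library totals alone as scaling it was 0.352.

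ACSL1 was the only called member of 26 lipid and sterol genes, whose median log2 fold change was -0.10, against 0.01 over all contigs and -0.09 over all symbols. At an unadjusted p under 0.05, 6 members were lower and 1 higher. The shares at that level were 7.75% lower and 1.84% higher over all symbols, and 4.86% and 5.1% over all contigs. Bscl2, seipin, which shapes lipid droplets, stood at 5.33 ± 0.851 CPM in runoff and 7.21 ± 1.17 CPM in reference clams (-0.43 on the log2 scale, edgeR adjusted p = 0.116). It was called by DESeq2 (adjusted p = 0.0311) and limma-voom (adjusted p = 0.0288). pgs1, which makes the precursor of the mitochondrial lipid cardiolipin, stood at 1.70 against 2.17 CPM (log2 fold change -0.36). SCOT1, which lets cells use ketone bodies, stood at 18.2 against 22.0 CPM (-0.27). All 8 runoff clams lay under the reference median for each of Bscl2, pgs1 and SCOT1, but the ranges overlapped. No tool called pgs1 or SCOT1.

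GNAS, the alpha subunit through which receptors switch on cyclic AMP production, also fell. Runoff clams ranged from 5.24 CPM in individual 56 through a median of 5.99 to 7.26 in individual 55, and reference clams from 6.95 CPM in individual 22 through a median of 8.51 to 11.5 in individual 31. Individual 55 was the only runoff clam inside the reference range. The means of 6.08 ± 0.617 and 8.88 ± 1.38 CPM (SD, n = 8) gave a log2 fold change of -0.55 (SE 0.101, adjusted p = 0.0362 in edgeR). The log2 fold change was -0.59 within lane 3, -0.48 within lane 4 and -0.52 without the 6 libraries that stand apart (edgeR adjusted p = 0.279). The call held with 15 of 24 libraries left out in turn, and with library totals alone the edgeR adjusted p was 0.343. Those 24 again include the 8 WWTP libraries, and the compared clams without which ACSL1 was lost were also needed for GNAS.

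Other G protein subunits had lower means too. GNAQ, the subunit that activates phospholipase C, ranged from 11.5 through a median of 12.5 to 16 CPM in runoff clams and from 15.2 through 17.9 to 21.6 CPM in reference clams, with 2 runoff clams inside the reference range. Its log2 fold change of -0.46 (SE 0.0959) just missed the threshold in edgeR (adjusted p = 0.0524) and passed in DESeq2 (0.000376) and limma-voom (0.0307). GNAI, the inhibitory subunit, stood at 46.3 ± 5.88 against 57.7 ± 9.84 CPM (log2 fold change -0.32, edgeR adjusted p = 0.321). KAPR, the regulatory subunit of the kinase that cyclic AMP activates, stood at 7.05 against 9.05 CPM (-0.36, edgeR adjusted p = 0.221) and averaged 10.4 CPM in WWTP clams. Of 16 G proteins, receptors and cyclic AMP genes tested, 1 was called, 4 were lower and none higher at an unadjusted p under 0.05, and 12.5% had a log2 fold change above 0. Over all symbols 7.75% were lower at that level and 33.3% lay above 0. The list's median was -0.34. Its receptors did not pass in either direction. The summed level of the list was 408.4 to 546.4 CPM in runoff and 508.3 to 598.8 CPM in reference clams.

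**Figure D1:**
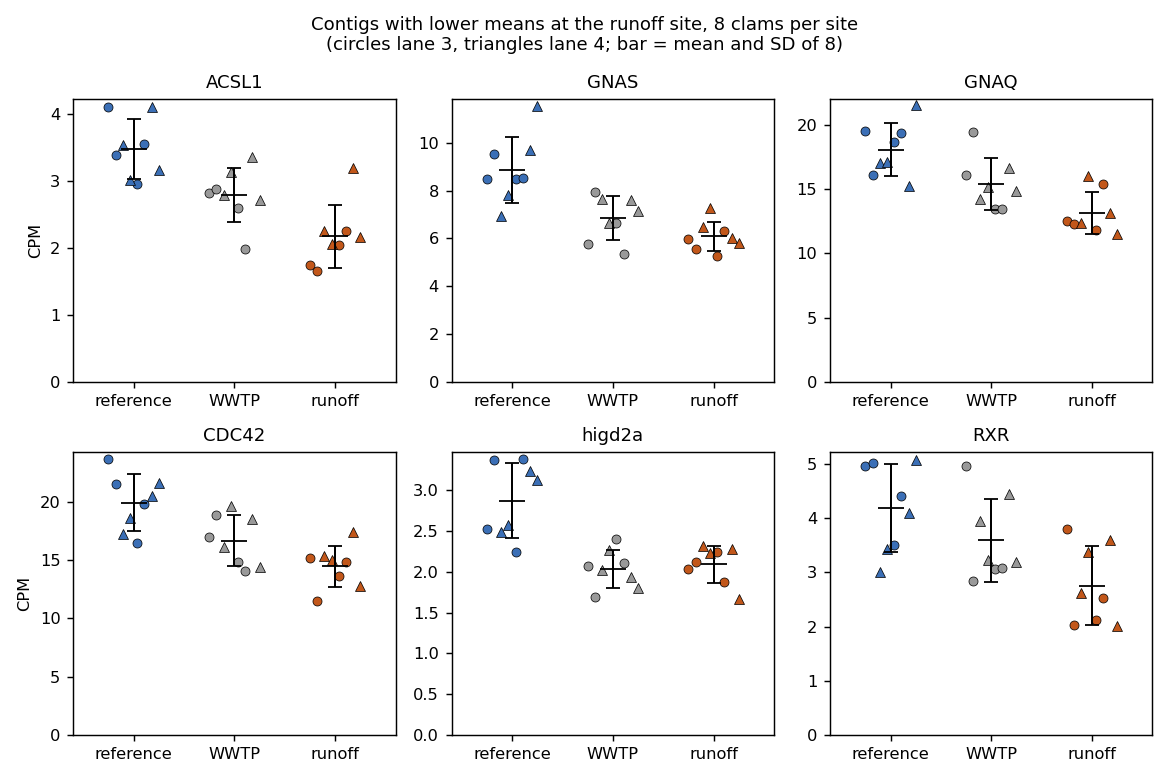
Levels in CPM (y axis, from 0) of 6 contigs in each clam of the reference, WWTP and runoff sites, with circles for lane 3, triangles for lane 4 and bars for the mean and SD of 8 clams. For ACSL1 and GNAS 1 runoff clam reaches into the reference range, for GNAQ 2.

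Small GTPases, which direct vesicle traffic and the actin skeleton, had lower means for a few members. CDC42, which sets cell polarity and actin assembly, ranged from 11.5 through a median of 14.9 to 17.4 CPM in runoff clams and from 16.4 through 20.2 to 23.7 CPM in reference clams. Only runoff individual 62 lay inside the reference range. Its log2 difference was -0.46 (SE 0.0993, adjusted p = 0.0586 in edgeR), and DESeq2 (adjusted p = 0.00105) and limma-voom (0.0328) called it. RAB2, which acts between the endoplasmic reticulum and the Golgi, stood at 14.5 ± 3.54 against 20.3 ± 2.11 CPM (-0.48, edgeR adjusted p = 0.112), with 7 of 8 runoff clams under the reference median, and was called by DESeq2 (adjusted p = 0.0121) and limma-voom (0.0272). ARF6, which acts in membrane recycling at the cell surface, stood at 10.2 against 13 CPM (-0.35). The adjusted p of ARF6 was 0.154 in edgeR, 0.0298 in DESeq2 and 0.062 in limma-voom. ARF4, a Golgi coat regulator, stood at 59.2 against 69.2 CPM (-0.23). In all, 4 of 26 members were lower and none higher at an unadjusted p under 0.05, beside 7.75% and 1.84% of all symbols. None of the 26 was called by edgeR, and the median was -0.09, the same as over all symbols. The 5 adaptors of the 14-3-3 family, which bind phosphorylated proteins, had a median of -0.18, with 14331.2.2 at 32.2 against 38.6 CPM (-0.26, edgeR adjusted p = 0.334).

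Several nuclear genes for mitochondrial proteins had lower means, while the abundant COX1 and ND5 of the mitochondrial genome did not. LETM1, an ion exchanger of the inner membrane, stood at 3.69 ± 0.482 against 5.22 ± 0.963 CPM (log2 fold change -0.50 with SE 0.108 and an edgeR adjusted p of 0.0586). The highest value, 7.44 CPM, was that of reference individual 31, and without this clam the log2 fold change was -0.41. higd2a, which takes part in assembling the respiratory chain, ranged from 1.67 through 2.17 to 2.31 CPM in runoff and from 2.24 through 2.86 to 3.39 CPM in reference clams. Its log2 fold change was -0.46 (edgeR adjusted p = 0.0696), and at the WWTP site, against the same reference libraries, -0.49 (edgeR adjusted p = 0.0213). DESeq2 and limma-voom called both LETM1 and higd2a in runoff clams. TIMMDC1, an assembly factor of complex I, stood at 7.50 against 9.13 CPM (-0.28), and tfam, which packs mitochondrial DNA, at 3.65 against 4.59 CPM (-0.33).

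Among the 7 contigs named for the mitochondrial genome, CYTB.2.2, named for cytochrome b, stood at 9.55 ± 0.847 against 12 ± 1.94 CPM (log2 fold change -0.33). Its adjusted p was 0.159 in edgeR, 0.039 in DESeq2 and 0.0536 in limma-voom. COX1, the catalytic subunit of cytochrome oxidase, stood at 7863 ± 987 against 7288 ± 710 CPM (0.11), and ND5, a subunit of complex I, at 5304 ± 742 against 4971 ± 927 CPM (0.09). COX1 and ND5 overlapped widely between the sites. MTND1 had a lower mean, 23.5 ± 2.89 against 26.9 ± 3.64 CPM (-0.19, edgeR adjusted p = 0.514), with 7 of 8 runoff clams under the reference median. Of the 7 contigs, 4 had a log2 fold change above 0. The 12 nuclear respiratory chain genes had a median of -0.05 and 2 lower members at an unadjusted p under 0.05. The 29 genes of mitochondrial translation and RNA had a median of -0.14 and 1 such member. All symbols had a median of -0.09, with 7.75% lower at that level.

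RXR, the retinoid X receptor that pairs with many nuclear receptors, stood at 2.76 ± 0.734 against 4.19 ± 0.809 CPM (log2 fold change -0.60 with SE 0.161). Its adjusted p was 0.12 in edgeR, 0.0237 in DESeq2 and 0.0699 in limma-voom. Runoff clams ranged from 2.0 through 2.57 to 3.80 CPM and reference clams from 3.0 through 4.25 to 5.07 CPM, so 3 runoff clams lay in the reference range. The other 12 members of its list of nuclear receptor, steroid, thyroid and retinoid genes were all above an unadjusted p of 0.05. RNF34 and KPC1, both ubiquitin ligases, stood at 2.31 against 3.12 CPM (-0.43, edgeR adjusted p = 0.113) and 3.0 against 4.48 CPM (-0.58, edgeR adjusted p = 0.132). RNF34 fell in WWTP clams, to 2.18 CPM (log2 fold change against reference -0.52, edgeR adjusted p = 0.0262).

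PLXA1, a receptor for semaphorin guidance signals, stood at 8.33 ± 1.48 against 12 ± 2.2 CPM (log2 fold change -0.52, edgeR adjusted p = 0.12). VKT2, named for a Kunitz-type protease inhibitor, had a larger difference, 17 ± 3.51 against 32.2 ± 7.03 CPM (-0.92, SE 0.243, edgeR adjusted p = 0.117; DESeq2 0.0237, limma-voom 0.0445). It ranged from 11 to 22.5 CPM in runoff clams and from 18.8 in reference individual 23 to 41.6 CPM in reference individual 30. WWTP clams averaged 17.7 CPM but spread from 9.18 to 41.5. Of 42 cytosolic ribosome and translation factor genes, 7.14% had a log2 fold change above 0, against 33.3% of all symbols, and 5 were lower at an unadjusted p under 0.05, against 7.75% of all symbols. IF4A2, a helicase of translation initiation, stood at 346 ± 32.2 against 455 ± 81.2 CPM (-0.39, edgeR adjusted p = 0.351). The median of the list was -0.12, close to the -0.09 over all symbols, and the summed level ranged from 15653 to 23427 CPM in runoff and from 18666 to 29944 CPM in reference clams.

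Among symbols with a mean of at least 2 CPM, the highest fold changes were those of ADHX.1.2 and ADHX.2.2, contigs named for class III alcohol dehydrogenase, which clears formaldehyde bound to glutathione. ADHX.2.2 ranged from 21.2 CPM in runoff individual 60 through a median of 98.1 to 292 CPM in individual 56. In reference clams it ranged from 3.06 CPM in individual 22 through 14.7 to 41.8 CPM in individual 20. Only 2 runoff clams lay inside the reference range. The means were 111 ± 89.1 and 19.1 ± 14.2 CPM (log2 fold change 2.54, SE 0.604), and the edgeR adjusted p of 0.0839 missed the threshold. DESeq2 (0.00189) and limma-voom (0.042) called it. Its log2 fold change was 2.15 within lane 3, 3.33 within lane 4 and 2.23 without the 6 libraries that stand apart. ADHX.1.2 stood at 68.2 ± 53.6 against 12.2 ± 9.42 CPM (2.48, SE 0.604, edgeR adjusted p = 0.0921), highest and lowest in the same clams. Because they share a name and these clams, their values are not separate observations. WWTP clams averaged 78.7 CPM for ADHX.2.2, a log2 fold change of 2.04 against the same reference libraries (edgeR adjusted p = 0.082).

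Among contigs called higher without a symbol, 6 had a log2 fold change above 3 (3.05 to 3.71). These 6 were all highest in runoff individual 56 and lowest in runoff individual 60 and in reference individual 22, and none overlapped between the sites. The next called contig was at 2.79. Their means ran from 13.9 to 87.3 CPM in reference clams, from 150.2 to 1145 CPM in runoff clams and from 95.6 to 628.0 CPM in WWTP clams. For contig_27540, runoff clams ranged from 244 through 864 to 3370 CPM, and reference clams from 18.8 through 78.4 to 215 CPM. The log2 difference was 3.71 (SE 0.649, adjusted p = 0.0351 in edgeR), 3.38 within lane 3, 4.32 within lane 4, and 3.13 without the 6 libraries that stand apart (edgeR adjusted p = 0.258). Individuals 56 and 20, the highest of their sites for this contig, are among those 6. In contig_19638 the log2 fold change was 3.69 (SE 0.641). Against the same reference libraries, WWTP clams gave 2.85 for contig_27540 (edgeR adjusted p = 0.0266) and 2.89 for contig_19638.

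**Figure D2:**
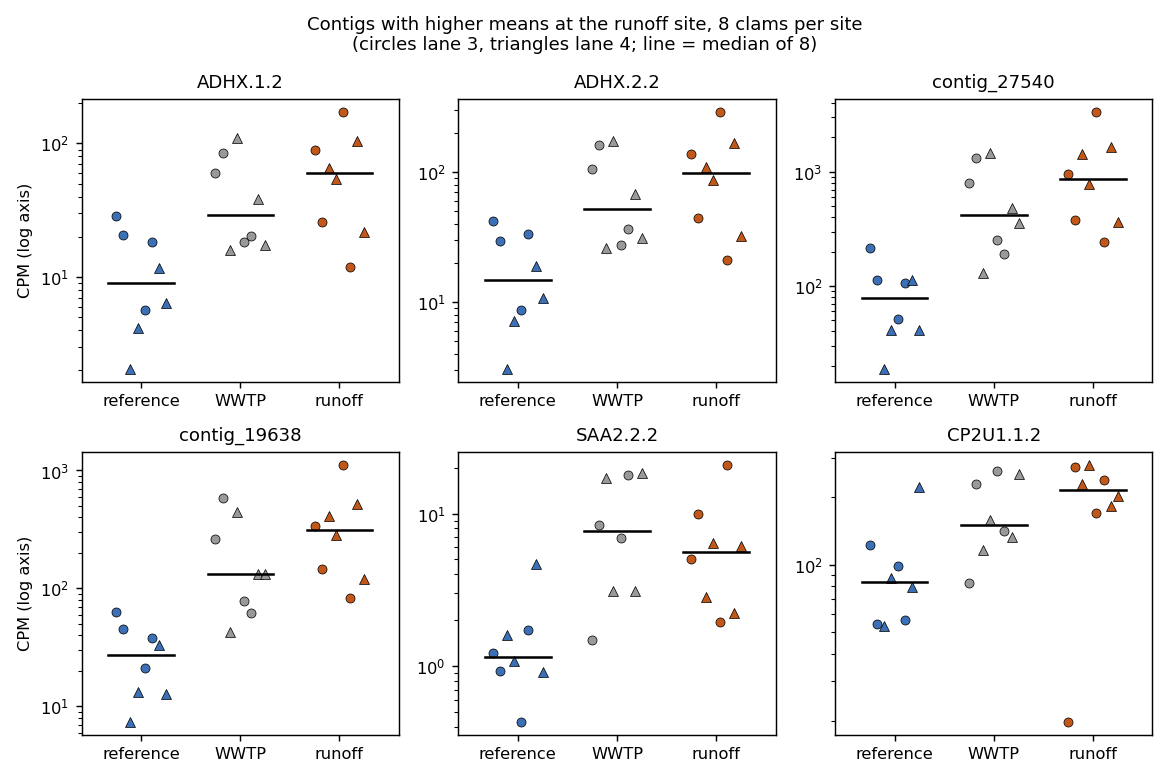
Levels in CPM (log y axis) of 6 contigs in each clam of the 3 sites, with circles for lane 3, triangles for lane 4 and lines for the median of 8 clams. The ADHX contigs and the contigs without a symbol are highest in runoff individual 56, while for CP2U1.1.2 runoff individual 49 lies far below the other 7 runoff clams.

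The ADHX contigs belong to a list of 26 genes of foreign compound handling, of which 4 had an unadjusted p under 0.05, 3 of them higher. Among all symbols 1.84% were higher and 7.75% lower at that level. CP2U1.1.2 and CP2U1.2.2, named for 1 cytochrome P450, had means in opposite directions. CP2U1.1.2 stood at 199 ± 82.4 against 96.5 ± 56.1 CPM (log2 fold change 1.05, edgeR adjusted p = 0.306), with 7 of 8 runoff clams above the reference median and individual 49 at 19.8 CPM. CP2U1.2.2 stood at 9.77 against 12.3 CPM (-0.33, edgeR adjusted p = 0.156). Outside ADHX and CP2U1 no member of the list had an unadjusted p under 0.05, glutathione transferases and carboxylesterases included. The list median was 0.03.

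Stress genes often read out in polluted clams did not separate the sites. MT, metallothionein, which binds metals, ranged from 232 through 329 to 403 CPM in runoff and from 234 through 364 to 493 CPM in reference clams (-0.20 on the log2 scale, SE 0.197, edgeR adjusted p = 0.867). HEPH.2.2, named for hephaestin, a copper-dependent iron oxidase, stood at 221 ± 62.8 against 168 ± 84.8 CPM (0.40, edgeR adjusted p = 0.82). None of the 8 metal and iron genes had an unadjusted p under 0.05. Among 18 redox genes 1 did, THIO.1.2, a thioredoxin, at 11.6 against 20.1 CPM, where reference individual 30 held 69.6 CPM and the direction turned within lane 3. HSF1, the transcription factor of the heat shock response, stood at 2.42 ± 0.336 against 3.05 ± 0.494 CPM (-0.34, edgeR adjusted p = 0.32). GRP78.1.2, a chaperone of the endoplasmic reticulum, stood at 6.66 ± 4.30 against 4.38 ± 1.75 CPM (0.60, edgeR adjusted p = 0.602), with 17.1 CPM in runoff individual 49. Of 18 heat shock and folding genes 2 were lower and none higher at an unadjusted p under 0.05. The shares over all symbols were 7.75% and 1.84%.

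SAA2.2.2, named for serum amyloid A, an acute-phase protein of vertebrates, had a higher mean at both effluent sites. It ranged from 1.94 CPM in runoff individual 56 through a median of 5.59 to 20.9 CPM in individual 60, and from 0.432 CPM in reference individual 25 through 1.15 to 4.70 CPM in reference individual 30. All 8 runoff clams lay above the reference median, and 3 lay inside the reference range. On the log2 scale the difference was 2.13 (SE 0.58), 3.13 within lane 3 and 1.08 within lane 4. The adjusted p was 0.127 in edgeR, 0.0131 in DESeq2 and 0.0794 in limma-voom. WWTP clams averaged 9.57 ± 7.20 CPM (log2 fold change against reference 2.6, edgeR adjusted p = 0.0294). Other contigs of that name differed less. SAA2.1.2 stood at 5.53 ± 2.86 against 3.31 ± 3.28 CPM (0.74, edgeR adjusted p = 0.767) and SAA at 13.3 ± 4.73 against 10.9 ± 7.67 CPM (0.29, edgeR adjusted p = 0.923).

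No immune, antiviral or cell death gene was called by edgeR. Of 100 immune recognition and effector genes, 2 had an unadjusted p under 0.05 with a higher and 7 with a lower mean. All symbols together had 1.84% higher and 7.75% lower at that level, and all contigs 5.1% and 4.86%. The list median was -0.11, beside -0.09 over all symbols. Of 52 interferon-type and antiviral genes 4 were higher and 1 lower, with a median of 0.06. Among these 52 genes, 61.5% had a log2 fold change above 0, against 33.3% of all symbols. IIGP1, named for an interferon-inducible GTPase of mice, stood at 5.66 ± 1.26 against 4.18 ± 1.0 CPM (0.44, edgeR adjusted p = 0.273), and PAR14.2.2, an ADP-ribosyltransferase, at 4.51 ± 1.75 against 2.45 ± 0.479 CPM (0.88, edgeR adjusted p = 0.275). stat4, a transcription factor of cytokine signalling, stood at 20.7 ± 8.15 against 14.4 ± 3.93 CPM (0.53, edgeR adjusted p = 0.342). For each of these 3 genes 7 of 8 runoff clams lay above the reference median.

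The 46 apoptosis genes had a median of 0.10, against -0.09 over all symbols, and 65.2% lay above 0, against 33.3%. At an unadjusted p under 0.05, 3 were higher and 1 lower, beside 1.84% and 7.75% of all symbols. In either direction, 9.95% of all contigs were at that level. No member was called by edgeR, DESeq2 or limma-voom. BIRC7.3.9, named for a family of inhibitors of apoptosis, stood at 6.33 ± 1.88 against 4.10 ± 0.986 CPM (log2 fold change 0.63, edgeR adjusted p = 0.184), BIRC7.7.9 at 2.57 against 1.75 CPM (0.55) and BIRC7.6.9 at 2.81 against 2.3 CPM (0.29). In contrast BIR7B.4.4 stood at 0.956 against 1.42 CPM (-0.57). For BIRC7.3.9 the log2 fold change was 0.96 within lane 3 and 0.29 within lane 4.

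The other symbols named here with higher means had small differences on overlapping values. The component term, DESeq2 and limma-voom all called 3 symbols higher, the ADHX contigs and megf11_bis, which the naming rule did not take up. RIMBP2, a scaffold of vesicle release sites in neurons, stood at 6.77 ± 1.44 against 4.95 ± 1.19 CPM (log2 fold change 0.45, edgeR adjusted p = 0.198). It had 5 runoff clams in the reference range and was called by edgeR with the component term (adjusted p = 0.0386). Neither DESeq2 (adjusted p = 0.111) nor limma-voom (0.12) called it. CALM.3.18, 1 of 18 contigs named for the calcium sensor calmodulin, stood at 3.19 against 2.18 CPM (0.55, edgeR adjusted p = 0.2). ARL6IP4.3.3, named for a splicing regulator, stood at 3.55 against 2.82 CPM (0.33) and SRSF4.2.2, a splicing factor, at 14.9 against 12.8 CPM (0.21). CATL, the lysosomal protease cathepsin L, was the only hydrolase with an unadjusted p under 0.05, at 11.5 ± 2.02 against 9.80 ± 1.03 CPM (0.23, edgeR adjusted p = 0.419). The 27 hydrolases had a median of -0.19, against -0.09 over all symbols, and 40.7% lay above 0, against 33.3%.

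**Figure D3:**
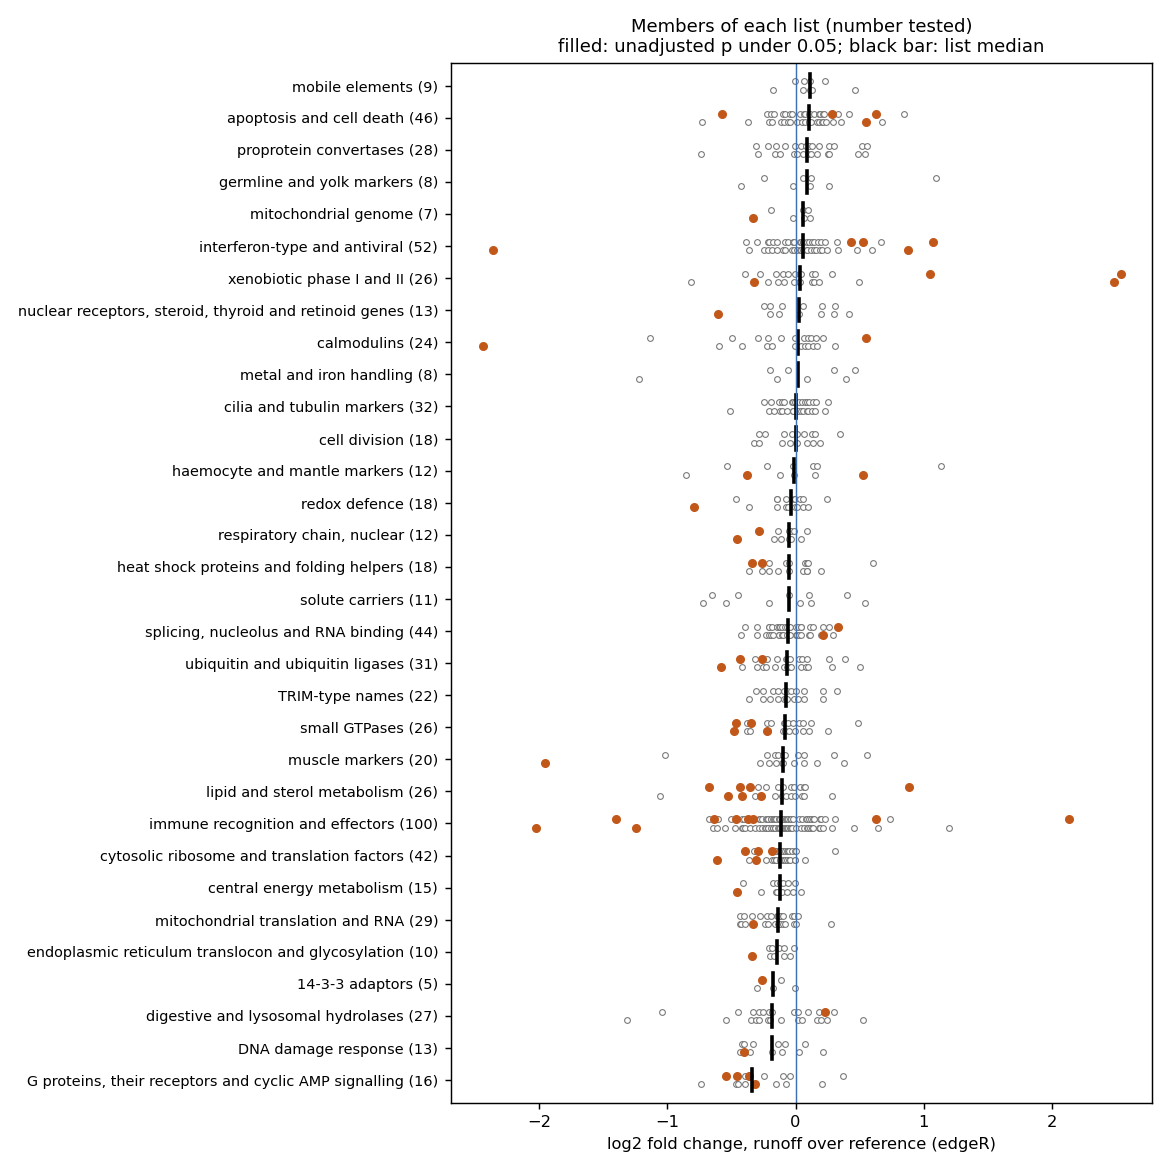
Log2 fold change of runoff over reference clams (x axis) for every tested member of 32 gene lists, with the number tested in brackets, filled points at an unadjusted p under 0.05 and a black bar at each list's median. G proteins and cyclic AMP genes have the lowest median, -0.34, and the ADHX contigs lie at the right.

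Markers of other tissues did not move as lists. The 20 muscle markers had a median of -0.10, with 1 lower and none higher at an unadjusted p under 0.05. All symbols had a median of -0.09, with 7.75% lower and 1.84% higher. Muscle markers summed to between 3965 and 9879 CPM in runoff and between 4040 and 8616 CPM in reference clams. None of 32 cilia and tubulin markers had an unadjusted p under 0.05. Yolk differed more between clams than between sites. Vg.1.2, vitellogenin, the yolk precursor, ranged from 45.3 CPM in runoff individual 60 through 1004 to 3481 CPM in individual 62, and from 459 through 2012 to 3751 CPM in reference clams (-0.43 on the log2 scale, edgeR adjusted p = 0.956). Haemocyte and mantle markers held a pair of integrin alpha chains at an unadjusted p under 0.05, in opposite directions, ITGA9.2.2 (6.29 against 4.35 CPM) and ITA9 (14 against 18.2 CPM).

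The direction of change differed between kinds of contig name. Of the 27 contigs called higher, 25 carried only a contig number, 2 a locus number or tag and none a symbol. Of the 40 called lower, 35 carried a locus number or tag, 2 a symbol and 3 only a contig number. Over all contigs tested, 33.3% of symbols and 30.3% of locus names had a log2 fold change above 0, against 64.3% of contigs with only a number. The medians were -0.09, -0.11 and 0.07. Named contigs were also more abundant, with a median of 6.97 CPM for symbols and 2.63 CPM for contigs with only a number, but the share above 0 for contigs of 10 CPM or more was 31.7% of symbols and 68.8% of contigs with only a number. The split was narrower within lane 4, at 51.0% of symbols and 56.3% of contigs with only a number, than within lane 3, at 39.2% and 62.3%. Shares above 0 for symbols and for contigs with only a number were 38.7% and 68.9% with library totals as scaling and 33.7% and 62.7% without the 6 libraries that stand apart. No sequence was used here, so whether contigs with only a number are transcripts of the clam was not tested, and neither was the part of the shallower runoff libraries of lane 4.

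**Figure D4:**
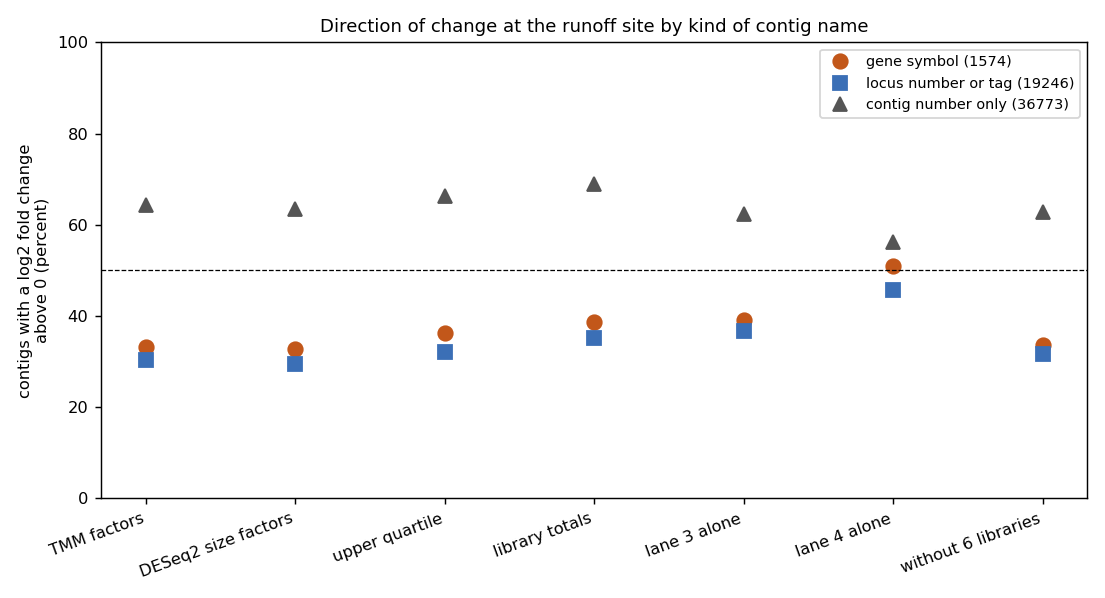
Percent of contigs with a log2 fold change above 0 (y axis, 0 to 100) for each kind of contig name under 7 settings (x axis), with the number tested in the legend. Symbols and locus names lie between 29.4% and 51.0%, and contigs with only a number between 56.3% and 68.9%.

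Several of the largest negative fold changes among symbols with a mean of at least 2 CPM rested on 1 reference clam. agr-1, named for agrin of the nematode basement membrane, was at 51.2 CPM in reference individual 30, while the median of the 8 reference clams was 0.904 CPM and the runoff clams ranged from 0.336 to 1.74 CPM. Its log2 fold change of -3.16 (edgeR adjusted p = 0.175) became 0.030 without that clam. FGL2.3.3, a fibrinogen-like protein, was at 28.8 CPM there (-2.03, and 0.44 without it), and CELSR2, a cadherin of cell polarity, at 147 CPM (-2.32, and 0.30 without it). In the same clam GP2.2.3 was at 29.1 CPM (-1.80, and -0.31 without it), CEACAM5 at 27.5 CPM (-1.43, and -0.50 without it) and ASGR1.1.3, a lectin receptor, at 23.3 CPM (-1.25, and -0.21 without it). TNNC2, the calcium switch of muscle troponin, has a mean under 2 CPM (1.15) and was at 10.7 CPM in that clam. All 8 runoff clams lay within the reference range for agr-1 and FGL2.3.3.

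**Figure D5:**
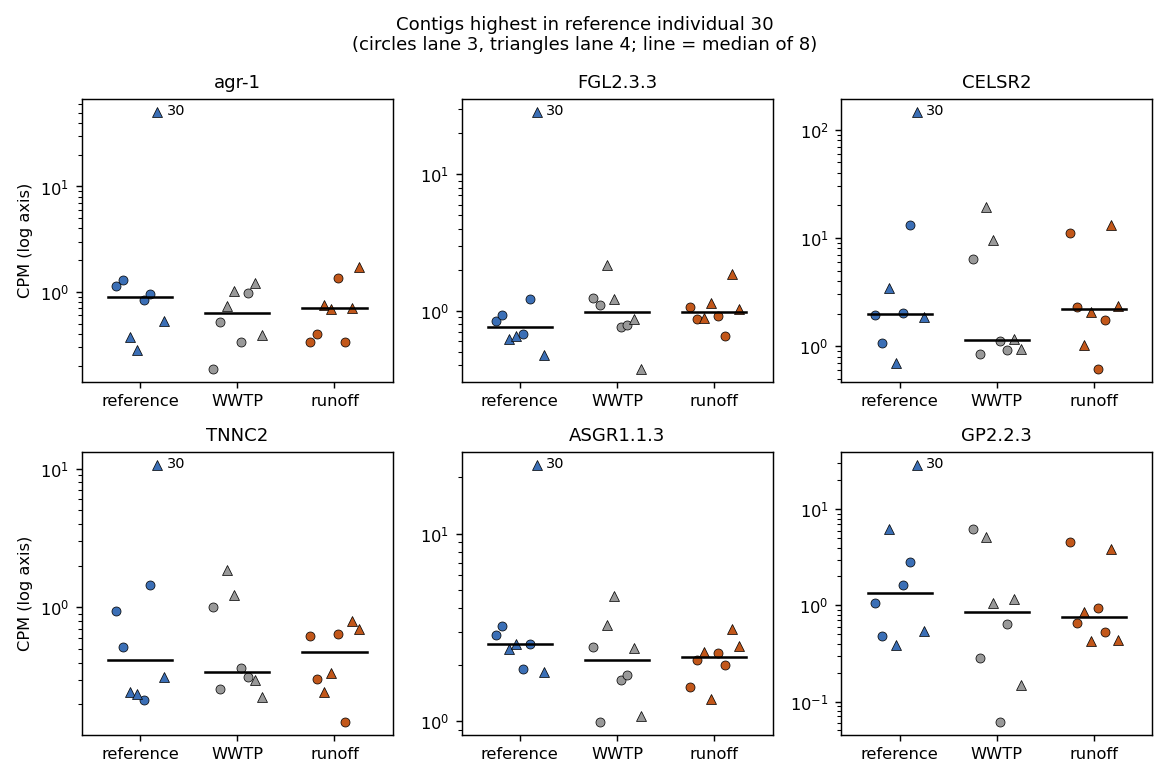
Levels in CPM (log y axis) of 6 contigs in each clam of the 3 sites, with circles for lane 3, triangles for lane 4, lines for the median of 8 clams and reference individual 30 marked. That clam is the highest of all 24 in each panel, at 51.2 CPM for agr-1 and 147 CPM for CELSR2.

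Runoff and WWTP clams were each compared with the same 8 reference libraries, so their changes are not independent. Beside the 0.116% of contigs called in runoff clams, 1.47% were called in WWTP clams (1.01% higher, 0.455% lower). The fall of ACSL1 was -0.68 on the log2 scale in runoff and -0.32 in WWTP clams (edgeR adjusted p = 0.196), and runoff against WWTP clams gave -0.36 (edgeR adjusted p = 0.152). For GNAS the values were -0.55 and -0.38 (edgeR adjusted p = 0.0594), and runoff against WWTP clams gave -0.17 (edgeR adjusted p = 0.504). LOC106051311 fell at both sites, by 0.68 in runoff (edgeR adjusted p = 0.0136) and by 0.52 in WWTP clams (0.0141), on the log2 scale. LOC105346775.3.3 was at 4.63 ± 0.588 CPM in runoff, 7.33 ± 1.13 CPM in reference and 6.93 ± 1.41 CPM in WWTP clams, and its direct difference between runoff and WWTP clams passed (log2 fold change -0.58, edgeR adjusted p = 0.0232).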

How the data were processed

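Per the labels' protocols, digestive gland RNA (Promega SV kit) was sequenced from TruSeq RNA v2 libraries. The deposited table holds raw read counts per contig, 1 column per library. The submitters' processing notes name BWA 0.7.12 and SAMtools 1.1. How contigs were assembled, counted and named is not given in the sources used here.

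Sites came from the labels and lanes from the library descriptions. The filter (filterByExpr by site, minimum count 10) removed 698 contigs holding 0.00718% of counts. All 24 libraries were fitted together with edgeR 4.0.16 in R 4.3.3 (TMM factors, robust quasi-likelihood, no covariate), and the runoff minus reference contrast was adjusted by Benjamini-Hochberg over 57593 contigs, with a threshold of 0.05. The biological coefficient of variation was 45.8%. Library measures were compared by two-sided exact permutation over 12870 splits, or 70 within a lane. Alternatives were other scalings and filters, a lane term, a term for the first principal component, single lanes, the 16 libraries alone, glmTreat, DESeq2 1.42.0, limma-voom (limma 3.58.1) with weights per sample, and leaving out each library in turn; leaving out 6 libraries was added after the data were seen. The highest correlation between libraries was 0.981, and none was a copy.

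Members, lists and design were chosen with earlier results of these data known. The 32 lists were drawn up from the symbols and replace the initial name patterns. Contigs were named by rule: symbols called; the 12 symbols per direction with the smallest p and the 5 with the largest fold at a mean of 2 CPM or more; up to 4 per list by p; up to 8 symbols per direction called with the component term; and, without a symbol, 2 per direction by fold at a mean of 5 CPM or more with no overlap. GUN was added after its values were seen, as were some list members chosen for their role.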

Additional observations from a re-analysis of the deposited data

Results flagged for a closer look

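In 22 cases 1 clam lay far from the other 7 of its site for a named contig, by Dixon's test at 95% on log2 values, over 87 named contigs and 5 library measures at each of the 2 sites. Chance marks about 1 in 20 such groups when they are not picked by their values. Most of these contigs were named for their p or fold change, which 1 far clam can shift, so that rate may not hold here. Reference individual 30 held the highest reference value of agr-1 (51.2 CPM), FGL2.3.3 (28.8 CPM), ASGR1.1.3 (23.3 CPM), TNNC2 (10.7 CPM), SAA2.1.2 (11.3 CPM) and SAA (29.2 CPM), and the lowest of KAPR (5.99 CPM).

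Reference individual 25 was lowest for LOC106051311 (6.23 CPM) and RAB2 (15.8 CPM) and highest for ARF4 (83.9 CPM). Reference individual 20 was lowest for GRP78.1.2 (1.286 CPM) and HEPH.2.2 (33.6 CPM), individual 21 highest for IIGP1 (6.48 CPM) and individual 31 highest for LETM1 (7.44 CPM).

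Among runoff clams, individual 49 was highest for RAB2 (22.4 CPM) and GRP78.1.2 (17.1 CPM) and lowest for CP2U1.1.2 (19.8 CPM). Individual 62 was highest for ACSL1 (3.19 CPM) and tfam (5.17 CPM), individual 56 lowest for KPC1 (1.13 CPM), and individual 60 lowest for Vg.1.2 (45.3 CPM) and Vg.2.2 (87.7 CPM).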

How the results depend on the processing

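The count of 67 called contigs, 2 with a symbol, was close to unchanged without a filter (69), and rose to 100 with at least 1 CPM in 8 libraries (4 symbols), 78 with a lane term and 95 with DESeq2 size factors (5 symbols). Upper-quartile scaling called 25 and the 16 libraries alone 11, neither with a symbol. DESeq2 called 814 contigs (28 symbols), limma-voom 391 (13 symbols) and the component term 956 (30 symbols). No contig and 0 symbols were called by edgeR with library totals alone (4181 at an unadjusted p under 0.05), in lane 3 (6708), in lane 4 (6247), against a log2 fold change beyond 1 (78), without the 6 libraries that stand apart (5202) or at a threshold of 0.01. With 1 library left out the count ran from 0 to 198, and symbols from 0 to 4. It was 1, 39, 4 and 8 without runoff individuals 53, 55, 56 and 63, and 2, 30, 3, 5 and 2 without reference individuals 20, 21, 29, 30 and 31. The cause of the changes was not tested.

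Directions turned for contigs that no tool called. With DESeq2 the log2 fold change was 0.037 for agr-1, 0.40 for FGL2.3.3, 0.060 for CALM4 and 0.32 for CELSR2, and with limma-voom 0.022 for FGL2.3.3 and -0.11 for RBP4. Leaving out 1 library gave -3.43 to 0.030 for agr-1, -2.21 to 0.44 for FGL2.3.3, -2.91 to 0.013 for CALM4, -2.83 to 0.30 for CELSR2 and -0.026 to 0.45 for RBP4. Within lane 4 it was 0.17 for HXK2, -0.16 for BDEF.1.2, -0.079 for LYS1, -0.51 for RBP4, 0.45 for Vg.1.2 and 0.54 for Vg.2.2. Within lane 3 it was 0.33 for THIO.1.2, 0.15 for GP2.2.3, 0.62 for GUN and -0.060 for ND5. SAA was at -0.020 without the 6 libraries.

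Total counts of runoff minus reference libraries were -8.12 M over the 16 libraries (-13.1 M to -5.72 M with 1 left out), 8.97 M in lane 3 and -25.2 M in lane 4. Contigs with a count differed by -64.4 (-80.5 to -38.7) and by -109.5 in lane 3. The share of counts in symbols differed by -0.277 points (-0.702 to 0.238), by -2.43 in lane 3 and by 1.88 in lane 4. That in mitochondrial names differed by 0.415 points and by -0.354 in lane 3, and that in the 100 most abundant contigs by 0.353 points (-0.207 to 0.906). No paired analysis was possible because no label ties a clam of 1 site to a clam of another.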
